A study of Mus musculus with 10 samples.

Results

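The genes described are 10 of the 23420 rows of a platelet read count table, taken by symbol alone: Gp6, Fcer1g, Clec1b, Syk, Lyn, Fyn, Lcp2, Lat, Plcg2 and Btk. They encode the collagen receptor GPVI, its signalling partner the Fc receptor gamma chain, the podoplanin receptor CLEC-2, and the kinases, adaptors and phospholipase that act directly behind them. RNA was measured in platelets sorted from the peripheral blood of adult mice by a red fluorescent reporter, giving 5 Tomato+ and 5 Tomato- libraries. The sources used here do not give the gene that drives the reporter, the strain or any further allele. They also do not say if each library is a mouse of its own, so the spread between libraries may be technical. The series was made to find genes that differ between both platelet fractions. Libraries held 5.41 to 16.2 M counts (M, 1000000), and 807 to 2450 genes had at least 1 count in a library. Tomato- replicates 1, 2 and 5 had under 1000 such genes, with 902, 978 and 807, while the lowest Tomato+ library had 1118. All 8 platelet marker genes listed, among them Itga2b, Pf4 and Ppbp, had counts in every library, and summed to 52185 ± 6335 counts per 1000000 counts (CPM) in Tomato+ against 53192 ± 5472 CPM in Tomato- (SD, n = 5 each).

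Platelets are cell fragments shed by megakaryocytes. They bind exposed collagen through GPVI, and podoplanin on lymphatic and other cells through CLEC-2. GPVI has no signalling motif of its own and is carried with a dimer of the Fc receptor gamma chain, whose tail holds an immunoreceptor tyrosine-based activation motif (ITAM), a pair of tyrosines that the Src family kinases Lyn and Fyn phosphorylate. CLEC-2 carries a single such tyrosine, called a hemITAM. In both cases the tandem SH2 kinase Syk docks on the phosphorylated motif, the adaptors encoded by Lat and Lcp2 gather a complex, and Btk and the phospholipase encoded by Plcg2 pass the signal on to calcium.

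Of the 10 genes, RefSeq promoter windows on build GRCm38.p6 were found for 9. The windows of the 3 receptor genes are shown because these were the genes of the set with at least 10 counts in every library. Each holds the 250 bases before the annotated start, 5′ to 3′ on the strand of the gene. Capitals mark matches, on either strand, to a GATA motif (TGATAA or AGATAA) or an ETS motif (CGGAAG or AGGAAG), the binding motifs of factor families known for megakaryocyte and blood cell genes; no position matched both. The windows lie at chr7:4397745-4397994 (minus strand) for Gp6, chr6:129397047-129397296 (plus strand) for Clec1b and chr1:171234350-171234599 (minus strand) for Fcer1g.
Gp6: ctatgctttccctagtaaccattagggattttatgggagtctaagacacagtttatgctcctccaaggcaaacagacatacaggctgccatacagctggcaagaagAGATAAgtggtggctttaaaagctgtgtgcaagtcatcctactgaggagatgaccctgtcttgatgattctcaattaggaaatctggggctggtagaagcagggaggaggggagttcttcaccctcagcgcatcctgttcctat
Clec1b: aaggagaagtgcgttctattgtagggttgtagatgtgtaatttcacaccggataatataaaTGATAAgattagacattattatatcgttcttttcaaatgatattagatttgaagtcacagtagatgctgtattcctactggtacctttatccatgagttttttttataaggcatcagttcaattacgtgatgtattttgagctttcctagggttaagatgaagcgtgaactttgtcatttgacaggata
Fcer1g: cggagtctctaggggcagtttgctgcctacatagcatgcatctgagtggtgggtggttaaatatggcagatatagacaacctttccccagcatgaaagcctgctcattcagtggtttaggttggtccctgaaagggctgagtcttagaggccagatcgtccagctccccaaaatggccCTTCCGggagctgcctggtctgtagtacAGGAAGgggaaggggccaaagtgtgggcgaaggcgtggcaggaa
The Gp6 and Clec1b windows each held 1 GATA match, at bases -144 to -139 and -189 to -184 from the start, and no ETS match. The Fcer1g window held 2 ETS matches, at -72 to -67 and -44 to -39, and no GATA match. Among all 32851 windows of the same length, 16.6% held a GATA match and 39.2% an ETS match. A match is a run of letters and not a measured binding site.

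Transcripts of all 3 receptor subunits were found in every library of both fractions, those of Lyn in every library and those of Lat in 9 of 10, whereas Syk, Fyn, Lcp2 and Btk appeared in 2 to 4 libraries each and Plcg2 in none. Counts in all 10 libraries were thus present for 4 of the 10 genes, and of the 4692 genes with any count 264 (5.63%) had one in every library. None of the set was called between both fractions. With edgeR's quasi-likelihood test, 0 of the 5 genes that passed its filter on low counts were called at an adjusted p under 0.05, against 0 of 1016 genes tested (0%). At an unadjusted p under 0.05 there were 9 of 1016 genes (0.886%) and again none of the 5; DESeq2 called 1 gene of the 1016 and limma voom 2, none of them in the set. The CPM of the groups overlapped for each of the 5 genes, and did not overlap for 6 of 1016 tested genes (0.591%). In platelets sorted in bulk, fewer transcripts per platelet and fewer platelets that hold a transcript cannot be told apart.

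**Figure D1:**
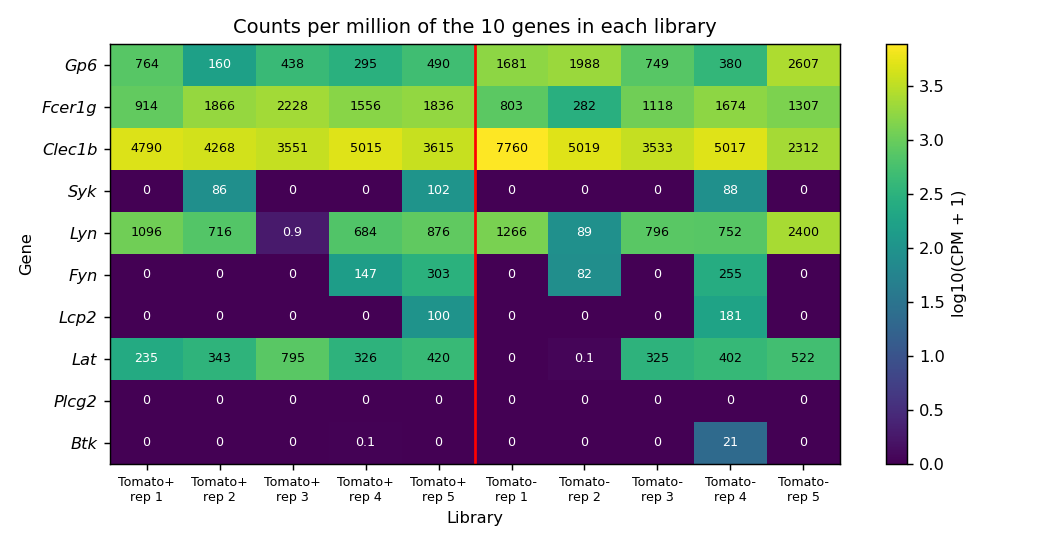
CPM of the 10 genes (rows) in the 5 Tomato+ and 5 Tomato- libraries (columns, separated by the red line); the colour is log10(CPM + 1) and the printed number is the CPM. The 3 receptor genes are filled in every column, while Syk, Fyn, Lcp2 and Btk are at 0 in most and Plcg2 is at 0 in all.

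Gp6 (ENSMUSG00000078810.4, chromosome 7, 4363965 to 4397744, minus strand, GRCm38) encodes GPVI, the main signalling receptor for collagen on platelets. In Tomato+ replicates 1 to 5 it had 764, 160, 438, 295 and 490 CPM. In Tomato- replicates 1 to 5 it had 1681, 1988, 749, 380 and 2607 CPM. The 3 highest values were Tomato- replicates 1, 2 and 5, and the other 2 Tomato- libraries lay within the Tomato+ range. The means were 429 ± 227 and 1481 ± 910 CPM (SD, n = 5 each), and the log2 fold change of Tomato+ over Tomato- was -1.46 (SE 0.72, 95% interval -3.00 to 0.07, unadjusted p = 0.0598, adjusted p = 0.9996, edgeR). On the linear scale the estimate was 2.76-fold lower in Tomato+, and Gp6 ranked 11 by p among the 1016 genes. With scaling by total counts in place of TMM the log2 fold change was -1.78, with an unadjusted p of 0.0232 and an adjusted p of 0.99998 in edgeR. DESeq2 gave -1.75 (unadjusted p = 0.00577, adjusted p = 0.9997), and the adjusted p was 0.470 or more in every one of the 17 alternative settings. The 3 high libraries are the 3 with under 1000 detected genes. Without them the Tomato- mean was 565 CPM over 2 libraries and the log2 fold change -0.37 (SE 1.17). Its 95% interval of -2.71 to 1.97 also holds the estimate of -1.46 from all libraries. The part of detection in the difference was not tested.

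Fcer1g (ENSMUSG00000058715.11, chromosome 1, 171229572 to 171234365, minus strand), the ITAM-bearing gamma chain that GPVI needs to reach the surface and signal, had its higher mean in the other fraction. Its levels were 914, 1866, 2228, 1556 and 1836 CPM in Tomato+ replicates 1 to 5, and 803, 282, 1118, 1674 and 1307 CPM in Tomato- replicates 1 to 5. Tomato+ replicates 2, 3 and 5 exceeded all Tomato- libraries, while Tomato+ replicate 1 lay below 3 of them. The means were 1680 ± 490 and 1037 ± 527 CPM, with a log2 fold change of 0.86 (SE 0.55, 95% interval -0.31 to 2.04, edgeR adjusted p = 0.9996). Without the 3 libraries with under 1000 detected genes the Tomato- mean was 1396 CPM. The log2 fold change was then 0.35 (SE 0.52, 95% interval -0.68 to 1.38).

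The level of Gp6 relative to its partner therefore ranged widely between libraries. The ratio of Gp6 to Fcer1g CPM was 0.836, 0.0856, 0.197, 0.190 and 0.267 in Tomato+ replicates 1 to 5. It was 2.09, 7.05, 0.670, 0.227 and 1.99 in Tomato- replicates 1 to 5. The 3 ratios above 1 belonged to Tomato- replicates 1, 2 and 5, and the other 2 Tomato- libraries overlapped the Tomato+ range. Per kilobase of exon (5900 bases for Gp6 and 874 for Fcer1g, all annotated transcripts joined), the ratio reached 1.04 in Tomato- replicate 2. It was 0.310 or less in each of the other 9 libraries, so Fcer1g had more counts per annotated length there. These ratios were formed after the values were seen and are given without a test.

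Clec1b (ENSMUSG00000030159.15, chromosome 6, 129397297 to 129409335, plus strand) encodes CLEC-2, the podoplanin receptor that keeps blood and lymph vessels apart in development. It was the gene of the set with the highest CPM in 9 of 10 libraries and ranked 30 of 23420 genes by mean CPM. Tomato+ replicates 1 to 5 had 4790, 4268, 3551, 5015 and 3615 CPM. Tomato- replicates 1 to 5 had 7760, 5019, 3533, 5017 and 2312 CPM. Both the highest and the lowest library were Tomato-, and the Tomato+ libraries lay between them. The means were 4248 ± 665 and 4728 ± 2039 CPM, and the log2 fold change was 0.07 (SE 0.30, edgeR adjusted p = 0.9996). Its 95% interval of -0.57 to 0.71 corresponds to 0.676-fold to 1.64-fold, so a 2-fold difference in either direction lay outside it. The sign of this small estimate turned with scaling by total counts (-0.16). Exons of Clec1b share 184 bases with those of Clec9a on the same strand, which had 15.6 ± 34.8 and 0.396 ± 0.886 CPM. Of the other genes of the set, Lyn shares 248 exon bases with Gm26857 and Lcp2 282 with 4930469K13Rik, both on the opposite strand. Lat shares 75 with Mir7058 on its own strand. Gm26857, 4930469K13Rik and Mir7058 had no row of counts.

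**Figure D2:**
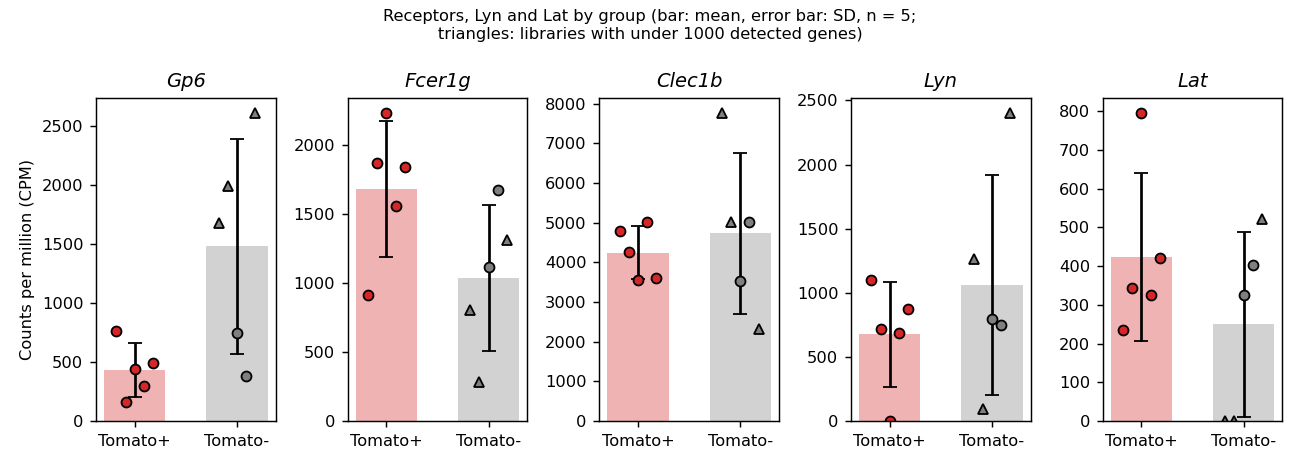
CPM of Gp6, Fcer1g, Clec1b, Lyn and Lat, with 1 point per library, bars for the mean and error bars for the SD (n = 5 per group); triangles mark the 3 Tomato- libraries with under 1000 detected genes. The triangles are the 3 highest points of Gp6. They include the lowest point of Fcer1g and both the highest and the lowest point of Clec1b. The groups overlap in every panel.

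The receptor genes differed in their spread between libraries, more so in Tomato+ than in Tomato-, and this was not tested. In Tomato+ libraries the coefficient of variation was 15.7% for Clec1b, 29.2% for Fcer1g and 52.9% for Gp6, where the median of the 264 genes with counts in every library was 37.9%. In Tomato- libraries these values were 43.1%, 50.8% and 61.5%, with a median of 50.8%. Of those 264 genes, 10.2% varied less than Clec1b in Tomato+ and 39.8% in Tomato-. Counting error was at most 2.14% of any single value of these 3 genes, far below their spread, and covers the sampling of reads only.

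Lyn (ENSMUSG00000042228.14, chromosome 4, 3678115 to 3813122, plus strand), a Src family kinase that phosphorylates the ITAM and also acts in inhibitory feedback, had the most counts among the signalling genes. Tomato+ replicates 1 to 5 had 1096, 716, 0.922, 684 and 876 CPM. Tomato- replicates 1 to 5 had 1266, 89.2, 796, 752 and 2400 CPM. Tomato+ replicate 3 held only 6 counts, and the other Tomato+ libraries lay within the range of Tomato-. The means of 675 ± 410 and 1061 ± 858 CPM gave a log2 fold change of -0.42 (SE 1.10, 95% interval -2.75 to 1.91, edgeR adjusted p = 0.9996), and without Tomato- replicate 5 it was 0.06. Fyn (ENSMUSG00000019843.14, chromosome 10, 39368855 to 39565381, plus strand), the second Src family kinase of the GPVI complex, had counts in 4 libraries: 147 and 303 CPM in Tomato+ replicates 4 and 5, and 81.8 and 255 CPM in Tomato- replicates 2 and 4. It did not pass the filter on low counts and was not tested, and the remaining 6 libraries had 0 counts.

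Syk (ENSMUSG00000021457.14, chromosome 13, 52583173 to 52648792, plus strand), the kinase on which both receptors converge, had 86.2 and 102 CPM in Tomato+ replicates 2 and 5 and 88.0 CPM in Tomato- replicate 4. The other 7 libraries had no Syk count. Where it was found, the level rested on 1181, 1170 and 933 counts. These are far more than the 3 counts that a count of 0 allows by read sampling. Without molecular identifiers, the number of transcripts behind these counts is unknown. Btk (ENSMUSG00000031264.13, chromosome X, 134542336 to 134583570, minus strand), a Tec family kinase that activates the phospholipase, had 224 counts (21.1 CPM) in Tomato- replicate 4, 1 count in Tomato+ replicate 4 (0.0618 CPM) and none elsewhere.

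Of the adaptors, Lat (ENSMUSG00000030742.7, chromosome 7, 126363824 to 126369570, minus strand), the membrane scaffold that Syk phosphorylates, was the regular one. Tomato+ replicates 1 to 5 had 235, 343, 795, 326 and 420 CPM. Tomato- replicates 3, 4 and 5 had 325, 402 and 522 CPM, replicate 2 had 1 count (0.125 CPM) and replicate 1 none. Apart from those 2 libraries, both with under 1000 detected genes, the Tomato- values lay within the Tomato+ range. The means were 424 ± 218 and 250 ± 238 CPM. The log2 fold change was 0.91 (SE 1.90, 95% interval -3.12 to 4.95, edgeR adjusted p = 0.9996). It was 0.34 (SE 1.31) once the 3 libraries of few detected genes were left out. Lcp2 (ENSMUSG00000002699.13, chromosome 11, 34046920 to 34092295, plus strand), which encodes the cytosolic adaptor that works with Lat, had 99.5 CPM in Tomato+ replicate 5 and 181 CPM in Tomato- replicate 4, and 0 counts in the other 8 libraries.

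Plcg2 (ENSMUSG00000034330.10, chromosome 8, 117498291 to 117635142, plus strand), the phospholipase of this pathway, had 0 counts in all 10 libraries. By counting error alone, 3 counts would correspond to 0.185 to 0.554 CPM by library. Lat had 0 counts in 1 library and up to 795 CPM in another, so counting limits of this kind say little about the platelets themselves.

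The number of genes of the set with a count varied among libraries of both fractions. Tomato+ libraries held 5, 6, 5, 7 and 8 of the 10 in replicates 1 to 5, and Tomato- libraries 4, 6, 5, 9 and 5. The highest numbers belonged to Tomato- replicate 4 and Tomato+ replicate 5, which also had the most detected genes of all kinds, 2430 and 2450. These 2 libraries were the only ones with Lcp2 counts, and each also held Syk, Fyn and Lat. Tomato- replicate 3 had 5 genes of the set although 1838 genes were detected in it. Whether detection accounts for the missing transcripts was not tested.

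**Figure D3:**
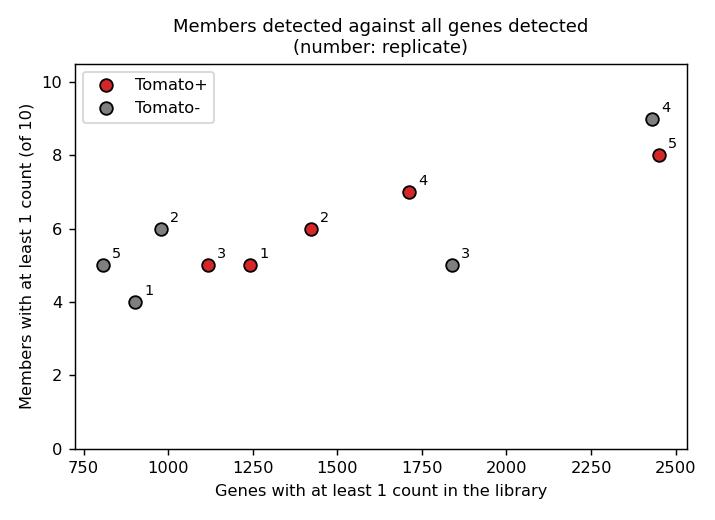
Genes of the set with at least 1 count (vertical axis, of 10) against all genes with at least 1 count in the same library (horizontal axis), for 5 Tomato+ and 5 Tomato- libraries, numbered by replicate. The 2 libraries with over 2400 detected genes hold 8 and 9 genes of the set, and the other 8 hold 4 to 7.

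Per kilobase of exon, the order of mean levels over the 10 libraries began with Fcer1g at 1554 ± 672 CPM per kilobase (SD, n = 10) and Clec1b at 879 ± 284. Lyn followed at 213 ± 163, Gp6 at 162 ± 142 and Lat at 122 ± 84.6 CPM per kilobase. Further down came Fyn at 18.0 ± 26.8, Lcp2 at 6.29 ± 13.9, Syk at 2.95 ± 4.77 and Btk at 0.673 ± 2.12 CPM per kilobase, with Plcg2 at 0. The gap between Fcer1g and Clec1b was about the SD of Fcer1g. Their ranges overlapped (323 to 2550 and 453 to 1521 CPM per kilobase). Compared within the same library, Fcer1g was higher in all but Tomato- replicates 1 and 2. There it had 918 and 323 against 1521 and 983 CPM per kilobase for Clec1b. The exon lengths join all annotated transcripts of a gene, 874 bases for Fcer1g and 5103 for Clec1b. By CPM alone Clec1b had the higher mean, 4488 against 1358 CPM, so the order per kilobase depends on these lengths. Of the further neighbours in this order, Lyn and Gp6, Gp6 and Lat, Fyn and Lcp2, and Lcp2 and Syk differed by less than the SD of either gene. Syk and Btk differed by less than the SD of Syk but by more than that of Btk. Within Tomato+ alone, Lyn (166 ± 101) and Lat (153 ± 78.7 CPM per kilobase) had higher means than Gp6 (72.8 ± 38.5), whereas in Tomato- Lyn and Gp6 were near each other at 260 ± 211 and 251 ± 154 and Lat lower at 90.3 ± 86.2 CPM per kilobase.

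**Figure D4:**
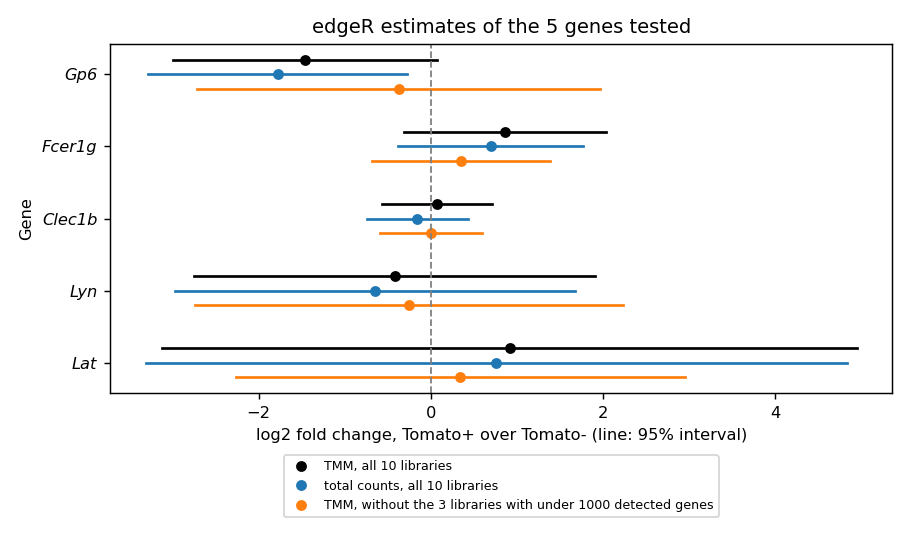
Log2 fold changes of Tomato+ over Tomato- for the 5 genes tested (points) with 95% intervals (lines), from edgeR with TMM factors, with scaling by total counts, and with TMM factors without the 3 Tomato- libraries with under 1000 detected genes. Without those libraries the estimate of Gp6 moves from -1.46 to -0.37 and that of Fcer1g from 0.86 to 0.35. The intervals of both from that fit still hold the estimates from all libraries.

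As a set, 3 of the 5 tested genes had a positive and 2 a negative log2 fold change, with a median of 0.07. Among all 1016 tested genes 58.3% were positive and the median was 0.21. With scaling by total counts 2 of the 5 were positive (median -0.16), where all genes gave 48.6% and a median of -0.03.

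Other genes of the pathway were read from lists. Of 24 further adaptors and effectors, 18 had any count, 5 had counts in every library, 11 were tested and 0 passed, with 7 higher and 4 lower estimates in Tomato+ (median log2 fold change 0.16). With scaling by total counts 5 of the 11 were higher. Rac1, a small GTPase of actin remodelling, averaged 2920 ± 1176 CPM in Tomato+ against 2980 ± 984 CPM in Tomato-. Rap1b, the GTPase that activates integrins, had 2947 ± 708 and 3837 ± 1011 CPM, and Rasgrp2, its calcium-dependent exchange factor, 1281 ± 247 and 1847 ± 491 CPM. Their log2 fold changes were 0.16 (SE 0.42), -0.12 (SE 0.27) and -0.27 (SE 0.40), and the first turned sign with scaling by total counts (-0.03).

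Skap2, an adaptor that links Src kinases to integrins, had 1185 ± 612 and 473 ± 276 CPM, with a log2 fold change of 1.51 (SE 0.83, edgeR adjusted p = 0.9996). Its lowest library, Tomato- replicate 5, had 26.1 CPM, and Tomato+ replicate 5 at 694 CPM lay within the Tomato- range, whose highest value was 711 CPM. Fyb, the partner adaptor that binds Skap2 and Lcp2, had 468 ± 284 and 430 ± 295 CPM. Grb2, an adaptor that binds Lat, was found in 4 libraries of Tomato+ (132 ± 74.0 CPM over all 5) and in 1 of Tomato- (20.8 ± 46.5 CPM). Prkcd, a protein kinase C of platelet secretion, had counts in 3 libraries of each group, with 58.7 ± 81.6 and 285 ± 425 CPM. Without Tomato- replicate 5 its Tomato- mean was 102 CPM, and without Tomato+ replicate 5 its Tomato+ mean was 30.9 CPM. Neither Grb2 nor Prkcd passed (edgeR adjusted p = 0.9996 for each).

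Among 9 other Src, Syk and Tec family kinases and Csk, 7 had 0 counts in all libraries, including Src itself, Yes1 and Fgr, and the list summed to at most 34.9 CPM in any library. Lyn and Fyn were the Src family kinases with counts among the members of that family listed here. Of 13 inhibitors and other regulators of ITAM signalling listed, 10 had any count, none had one in every library, 6 were tested and 0 passed. There were 4 higher and 2 lower estimates (3 of 6 higher with scaling by total counts). Ceacam1, an inhibitory receptor, averaged 163 ± 117 CPM in Tomato+ against 24.4 ± 31.0 CPM in Tomato-, a log2 fold change of 2.72 with SE 2.42, and its Tomato- mean was 16.01 CPM without replicate 3 and 15.8 CPM without replicate 4. Ptprj, the phosphatase CD148 that sets the activity of Src kinases in platelets, averaged 214 ± 264 against 58.2 ± 90.4 CPM, a log2 fold change of 1.90 with SE 2.49. Without Tomato+ replicate 3 its Tomato+ mean was 118 CPM, and without Tomato- replicate 4 its Tomato- mean was 19.8 CPM. Of the ligands listed, Pdpn and both collagen I genes had 0 counts in every library. Itgb1, the beta subunit of the integrin collagen receptor, had 1866 ± 765 and 968 ± 856 CPM and was at 0.185 CPM, 1 count, in Tomato- replicate 5 (log2 fold change 0.995, SE 1.09).

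Genes of the set, Fcer1g, Lyn, Syk and Btk among them, are also expressed by white blood cells, so markers of these cells were read in the same libraries. Of 14 ITAM chains and Fc gamma chain partners of other cells, 12 were at 0 in all libraries, with Tyrobp (the DAP12 chain of myeloid and NK cells) at up to 23.2 CPM and Fcgr1 at up to 18.7 CPM in a library. Of 10 monocyte and neutrophil markers in the table, 8 were at 0 throughout, among them S100a8, Csf1r, Cd14 and Itgam. Their sum ran from 0 to 240 CPM in Tomato+, where S100a9 in replicate 3 gave nearly all of it and Ly6c2 under 0.1 CPM in another library, and was 0 in all Tomato- libraries. Lyz2, a lysozyme gene of myeloid cells that was not in the list and was added after its values were seen, had 7672 ± 1117 and 7857 ± 1189 CPM.

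B cell markers summed to 0 to 115 CPM in Tomato+ and 0 in Tomato-, all of it Cd37 in 2 libraries, with Ms4a1, Cd79a and Cd79b at 0. T and NK cell markers were 0 in Tomato+ and up to 20.7 CPM in Tomato-, which was Nkg7 in 1 library, with Cd3e at 0. Of 7 mast cell and basophil markers, 6 including Cpa3 and Fcer1a were at 0 and Gata2, also a megakaryocyte gene, reached 76.8 CPM. Red cell markers summed to 152 ± 177 CPM in Tomato+ (78.0 without replicate 5) and 946 ± 1467 CPM in Tomato- (302 without replicate 4). The haemoglobin row Beta-s led them with 3257 CPM in Tomato- replicate 4, the library that also held Syk, Fyn, Lcp2 and nearly all Btk counts. In that library Bpgm had 82.9 CPM and Alas2, named after its values were seen, 183 CPM. Bpgm had 110 CPM in Tomato+ replicate 5. The highest values of Tyrobp (23.2 CPM), Nkg7 (20.7 CPM) and Gata2 (76.8 CPM) were also in Tomato- replicate 4. Those of Fcgr1, S100a9, Ly6c2 and Cd37 were in Tomato+ libraries. The part of these cells in the levels of the set was not tested.

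By Spearman's rank correlation of CPM over the 10 libraries among 263 genes with counts in every library, Gp6 was most like Gm1821 (rho 0.891, Pearson's r 0.814) and Dlgap4 (rho 0.867, r 0.764). Fcer1g was most like Clu, which encodes the alpha granule protein clusterin (rho 0.891, r 0.830), and Lars2 (rho 0.867, r 0.856). Clec1b was most like Creg1 (rho 0.867, r 0.951) and Ilk, the integrin-linked pseudokinase (rho 0.855, r 0.804). These are the highest values of a search over libraries that share depth and detection, and describe likeness in these 10 libraries alone.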

How the data were processed

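Platelet RNA of 10 samples was read from 1 table of raw read counts per gene symbol, deposited by the authors without normalization. Smart-seq+ complementary DNA and Nextera XT libraries were made, per the labels' protocols. Trimmomatic, FastQC, STAR and featureCounts are named without versions in the submitters' processing notes, with build mm10; the annotation, the use of strand and the rule for multi-mapped reads are unknown from these sources, so overlapping and antisense genes cannot be told apart. No molecular identifiers enter the counts, so counting errors and limits cover read sampling only.

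CPM used the sum of all rows as library size. The group comparison used R 4.3.3 and edgeR 4.0.16 (robust quasi-likelihood test, TMM, filter with minimum count 10 and minimum total 15, group as sole term, Benjamini-Hochberg over all tested genes, threshold 0.05). The kept genes held 93.9 to 95.4% of counts and set the library sizes. Log2 fold changes are on the TMM scale, whose median over all genes was 0.21 against -0.03 with total counts. SE was derived from the estimate and its F value. The fits were tested on simulated counts. Alternatives used DESeq2 1.42.0 and limma 3.58.1 (voom with robust eBayes), other filters and scaling, a replicate block and left-out libraries. The 20 pairs of libraries within groups differed by more than read sampling gives (chi-square of at least 623 per degree of freedom), and each counted as 1 replicate. Coordinates and exon lengths come from GENCODE M21 on GRCm38, which matched 21737 of 23420 symbols. Exon lengths join the exons of all annotated transcripts of a gene. Hbb-bs, Hbb-bt, Ighm, Ly6g and Trac of the marker lists matched no row and were not analysed here. Named are the 10 genes, the members of each further list with counts in every library plus up to 2 with the smallest p, the 2 most abundant of each list of another cell type, and the 2 genes most like each receptor gene; others are named for being at 0 or after their values were seen. The members and lists were chosen with earlier results of these data known.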

Additional observations from a re-analysis of the deposited data

Results flagged for a closer look

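In 5 of 18 groups of 5 libraries with any count, 1 library stood apart from the other 4 by more than Dixon's 95% limit; chance flags about 1 in 20 groups. In all 5 the other 4 libraries had 0 counts, so any count at all gives this result. Syk had 88.0 CPM in Tomato- replicate 4. Lcp2 had 99.5 CPM in Tomato+ replicate 5 and 181 CPM in Tomato- replicate 4. Btk had 21.1 CPM in Tomato- replicate 4, and 0.0618 CPM, a single count, in Tomato+ replicate 4.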

How the results depend on the processing

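The count of genes called among all genes tested was 0 in the edgeR fit and in each of its 15 alternatives, 1 with DESeq2 (Tug1, lower in Tomato+) and 2 with limma voom (Ctla2a and Tmsb4x, higher in Tomato+). Without 1 library it was 0 in all 10 cases. No gene of the set passed in any setting run. The smallest adjusted p was 0.470 for Gp6 and 0.561 for Fcer1g, both from edgeR without a filter on low counts. In that fit their unadjusted p-values were 0.27 and 0.33, and 1764 of 4692 genes had an unadjusted p under 0.05. Gp6 stayed negative in all 17 alternatives (-1.82 to -0.37, and -1.82 to -1.23 without 1 library) and Fcer1g positive (0.35 to 1.20). Lat stayed positive in 16, from 0.34 to 4.82, the last with limma voom. Clec1b turned to -0.16 with total counts, -0.084 with DESeq2 and -0.073 on genes with 10 counts in every library, and ran from -0.10 to 0.32 without 1 library. Lyn ran from -0.82 to 0.061 without 1 library, positive without Tomato- replicate 5. With the replicate number as a block, 0 genes were called and the log2 fold change of Gp6 was -1.40. The labels share only a number between groups. Same-numbered libraries correlated between -0.11 and 0.12 in their deviations from group means. Of 10 libraries, 3 correlated best with their own number, where each had 5 libraries of the other group to match. Sample numbers in the titles ran through Tomato+ and then Tomato-. Sample order and fraction thus cannot be told apart. Leaving Rn45s out of the library size moved no mean CPM of the 10 genes by more than 1 SD. Lat and Lyn had no 10 counts in every library and thus no value there. The 5 untested genes of the set each had 0 counts in 6 or more libraries, whose totals ran from 5.41 to 16.2 M counts, and which part of this is depth was not tested.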

Other observations

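The 10 genes together made up 0.760 ± 0.0390% of all reads counted in Tomato+ against 0.868 ± 0.190% in Tomato- (SD, n = 5 each). The Tomato+ sums spanned 7013 to 8023 CPM and the Tomato- sums 6521 to 11510 CPM, so that all 5 Tomato+ libraries lay within the Tomato- range. Clec1b alone made up 46.7 to 62.5% of this sum in Tomato+ libraries. In Tomato- libraries its part ran from 25.3% in replicate 5, where Lyn and Gp6 each had more CPM than Clec1b, to 67.4% in replicate 1. These values are given without a test.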
